A study of Homo sapiens with 6 samples.

Results

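The HOX cluster genes were followed through 6 RNA-seq libraries of YAPC, a line from a human pancreatic ductal adenocarcinoma that is used as a model of the classical subtype. Members were all entries of the expression table named HOX, a cluster letter from A to D and a number, or a merged name holding one, and 36 of 25442 entries met this rule. Because 2 entries merge several names (HOXA10 with HOXA9, and HOXC4 with HOXC5 and HOXC6), the 36 entries cover 39 HOX genes. All cells carried the rtTA transactivator and were grown with doxycycline (Dox) for 6 days. Cells of the iEV group held the empty pRetroX-Tight-Puro vector (3 libraries), and cells of the iGLI2 group held the same vector with a Flag-tagged human GLI2 cDNA (3 libraries), so that Dox switched on the transcription factor GLI2, which acts downstream of Hedgehog signaling. Neither the labels nor the methods say whether the libraries of a group came from separate cultures or clones, so the p-values measure the spread between these libraries, which may be technical.

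HOX genes encode homeodomain transcription factors that give cells along the head-to-tail axis of the embryo their positional identity. They lie in clusters on different chromosomes, and their order along the chromosome follows the order in which they are switched on, from the anterior genes with low paralog numbers to the posterior genes with high ones. HOX proteins bind DNA together with TALE homeodomain cofactors of the PBX, MEIS and PKNOX families, Polycomb and trithorax complexes hold the clusters silent or active, and adult epithelia and tumors keep part of the embryonic pattern. The clusters also carry long noncoding RNAs and microRNAs (miRNAs), and GLI factors, like HOX genes, take part in the patterning of limb and gut.

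GLI2 followed the labels, at 0.344 to 0.466 FPKM (fragments scaled to transcript length and library size, a level per length) in the iEV libraries and 94.5, 207 and 195 FPKM in iGLI2 replicates 1 to 3, where fragments of the construct and of the endogenous gene cannot be told apart. The FPKM values added up to 981344 to 1082687 per iEV library and 803149 to 889559 per iGLI2 library, and the number of reads behind them is unknown, so no counting error is given. The epithelial markers KRT19, KRT7, EPCAM and CDH1 had means of 61.0 to 806 FPKM, whereas KRT8 and KRT18 were listed at 0 in all 6 libraries, which was not read as absence. EPCAM had means of 405 and 523 FPKM in iEV and iGLI2 libraries and CDH1 53.2 and 68.9 FPKM, without overlap of the groups. KRT19 had 621 and 548 FPKM and KRT7 870 and 743 FPKM, with overlap. The summed level of 6 fibroblast markers was 1.36 to 1.57 FPKM in iEV and 2.31 to 3.02 in iGLI2 libraries, nearly all of it COL1A1, and that of 4 leukocyte markers was 7.41 to 8.24 and 4.12 to 5.04 FPKM, with PTPRC and CD3E near 0 and CD14 the member that differed, and DCN was listed at 0 in all libraries. The part of these markers in the HOX values was not tested. Differences between groups are given on the log2(FPKM + 1) scale from limma, adjusted by Benjamini-Hochberg over the 12493 entries with a mean of at least 1 FPKM, with a threshold of 0.05. This scale understates the change of low genes.

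YAPC cells expressed HOX genes of all 4 clusters, most of those of HOXA, HOXB and HOXC and few of HOXD. The mean of the 6 libraries reached 1 FPKM in 23 entries, HOXD1 among them only through 1 library, which leaves 22 entries (25 genes). These comprised 7 of 10 HOXA, 7 of 10 HOXB and 6 of 7 HOXC entries but 2 of 9 HOXD entries, HOXD8 and HOXD11. A further 11 entries were low, with means from 0.192 to 0.928 FPKM, and HOXB1 and HOXD13 were near silent, with means of 0.0123 and 0.0371 FPKM. No member was listed at 0 in all libraries. The members nearest to the threshold were HOXD8 (mean 1.01 FPKM) and HOXA11 (1.02) just above it and HOXA7 (0.928) and HOXD10 (0.863) just below it.

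**Figure D1:**
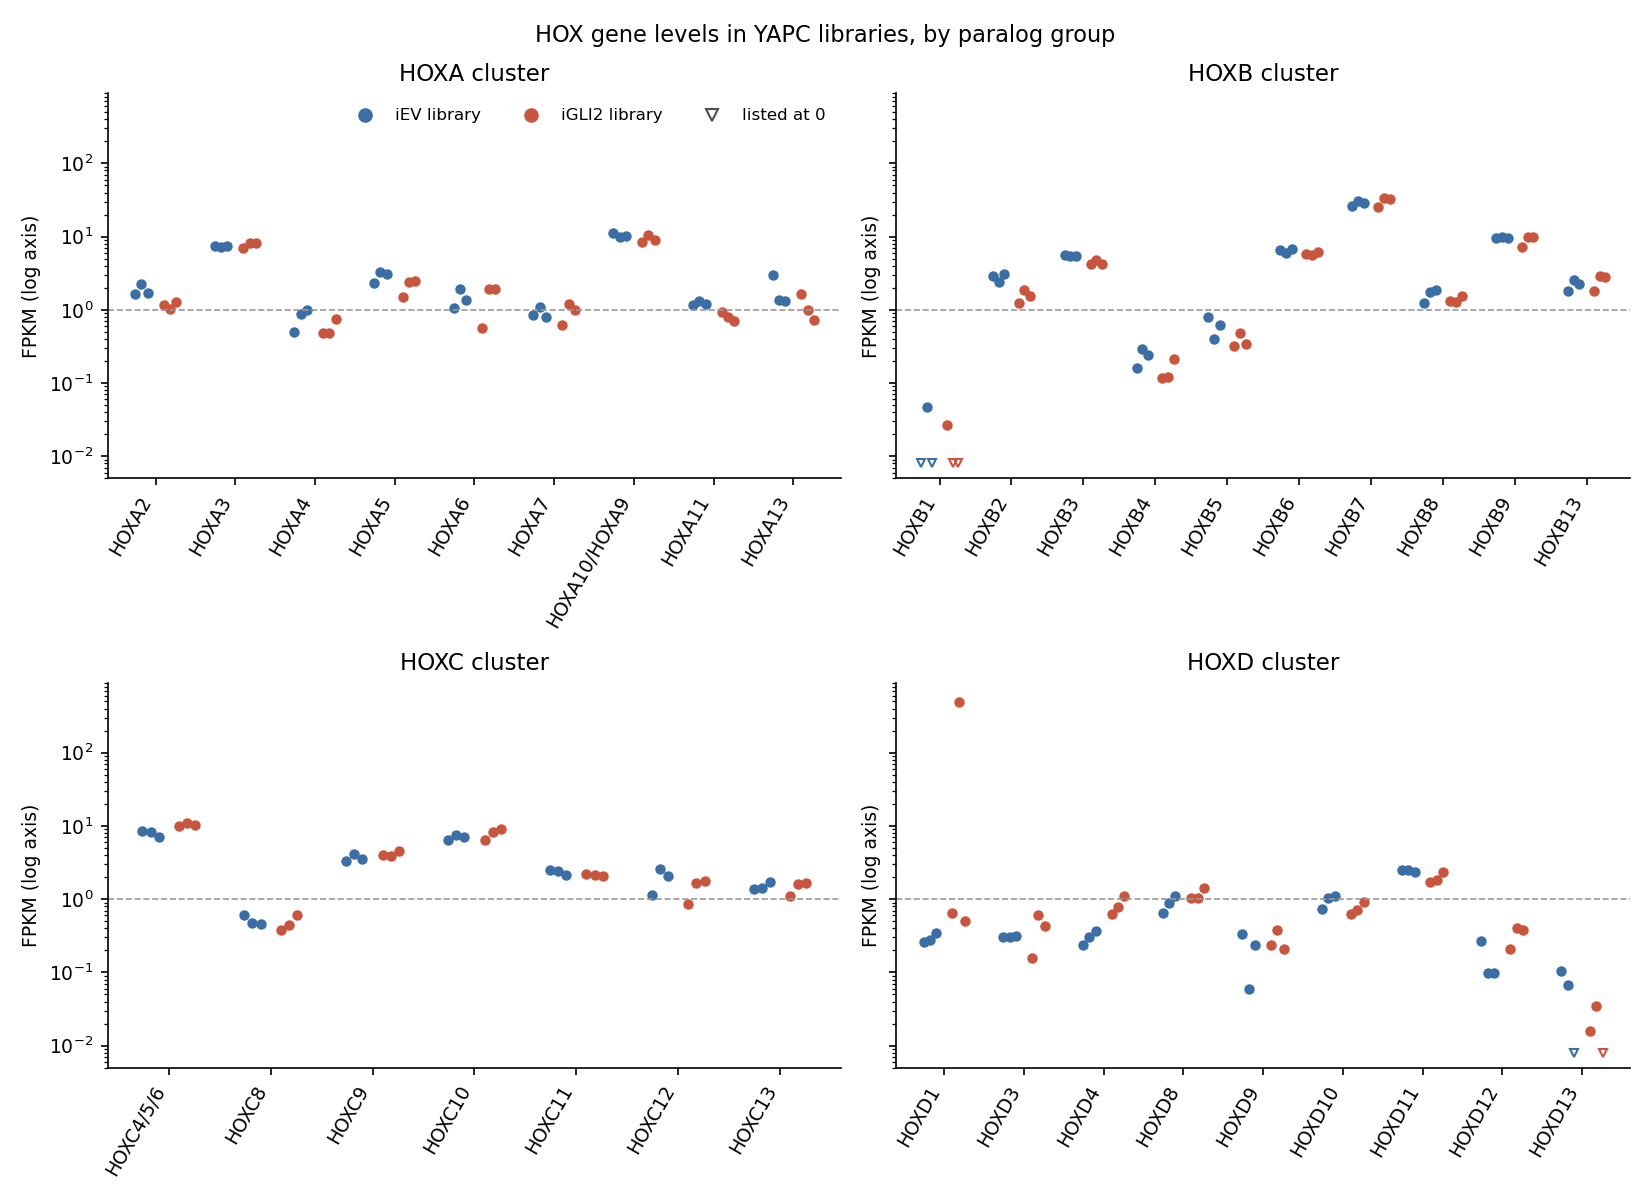
Levels of 35 of the 36 HOX entries in each library (FPKM, log axis), by cluster and in order of paralog group, with iEV libraries in blue, iGLI2 libraries in red, open triangles for values listed at 0 and a dashed line at 1 FPKM. HOXB7 stood above the other members at 25.0 to 34.0 FPKM, most HOXD members lay below the line, and HOXD1 was high in iGLI2 replicate 2 alone.

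HOXB7, a central HOXB gene often described as overexpressed in carcinomas, was the most abundant member. Its level was 26.3, 30.6 and 28.7 FPKM in iEV replicates 1 to 3 and 25.0, 34.0 and 32.6 FPKM in iGLI2 replicates 1 to 3, so the groups overlapped. It made up 23.0% to 27.5% of the summed HOX FPKM of a library without HOXD1, and its mean of 29.5 FPKM exceeded that of 74.8% of the entries tested. The next members were the merged HOXA10 and HOXA9 entry (mean 9.92 FPKM), HOXB9 (9.38), the merged HOXC4, HOXC5 and HOXC6 entry (9.18), HOXA3 (7.57), HOXC10 (7.45), HOXB6 (6.17), HOXB3 (4.98) and HOXC9 (3.89). Library values of HOXA10 and HOXA9, of HOXB9 and of HOXC4 to HOXC6 overlapped each other, so their order is not resolved. Most other members were scarce: the median of the 22 means was 2.31 FPKM, against 11.4 FPKM over all entries tested.

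The clusters also hold miRNA genes, MIR196A1 between HOXB9 and HOXB13 among them. These miRNAs are known to repress HOX transcripts by pairing of their seed, bases 2 to 8, with sites in the untranslated end of the mRNA. The mature miRNAs of the clusters found in RefSeq (GRCh38.p14) are shown with the seed in capitals, because sites were searched by exact match to the seed. Of these, miR-196a-5p is encoded by MIR196A1 at chr17:48632532-48632553 and by MIR196A2 at chr12:53991762-53991783, miR-196b-5p by MIR196B in the HOXA cluster at chr7:27169528-27169549, miR-10a-5p by MIR10A in the HOXB cluster at chr17:48579904-48579926 and miR-615-3p by MIR615 in the HOXC cluster at chr12:54034010-54034031.
hsa-miR-196a-5p: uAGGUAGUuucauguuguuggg
hsa-miR-196b-5p: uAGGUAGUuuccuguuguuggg
hsa-miR-10a-5p: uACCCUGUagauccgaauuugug
hsa-miR-615-3p: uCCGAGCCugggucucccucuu

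Both miR-196 forms share the seed AGGUAGU. Its matching 7 bases, ACTACCT, were found in the longest annotated 3′ untranslated region of 9 of the 39 HOX genes (GENCODE 44 on GRCh37), HOXA5, HOXA7, HOXA9, HOXB1, HOXB6, HOXB7, HOXB13 and HOXC8 among them, and of 7.66% of 19284 protein-coding genes. HOXA7 held 4 such sites, and HOXC8, a gene of thoracic identity, held 3. The match of the miR-10 seed, ACAGGGT, was found in 3 of the 39 HOX genes, HOXA3 and HOXB3 among them, and in 13.7% of all genes. Sites that pair imperfectly with a seed were not searched, so a gene outside these counts may still hold a site. The sites shown are that of the abundant HOXB7 (chr17:46684976-46684997, minus strand), the first of the scarce HOXC8 (chr12:54405279-54405300, plus strand) and the miR-10 site of HOXB3 (chr17:46626829-46626850, minus strand), with the bases that match the seed in capitals.
HOXB7 site: aacactgaaaaaatACTACCTa
HOXC8 site: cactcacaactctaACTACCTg
HOXB3 site: gacttaacgtgaaaACAGGGTa

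Members with a site ran from HOXB7, the most abundant at 29.5 FPKM, over HOXB6 at 6.17, HOXA7 at 0.928 and HOXC8 at 0.493 FPKM to HOXB1 at 0.0123 FPKM. MIR196A1 was listed at 113, 192 and 130 FPKM in iEV and 144, 236 and 154 FPKM in iGLI2 libraries (limma adjusted p = 0.476), and the groups overlapped. Its entry spans only chr17:46709852-46709921, which lies inside the longest annotated HOXB7 gene span (chr17:46684594-46710934, same strand), and a library of this kind does not measure mature miRNAs. MIR10A, MIR10B, MIR196A2, MIR196B and MIR615 were listed at 0 in all 6 libraries.

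Few HOX entries passed the threshold when GLI2 was forced. Of the 23 entries tested, 3 (13.0%) passed the threshold, against 21.9% of all entries tested (10.1% higher and 11.8% lower), so the share of HOX members was not above the background. HOXB2 and HOXB3 fell, and the merged HOXC4, HOXC5 and HOXC6 entry rose. The other 19 entries without HOXD1 differed by at most 0.41 on the log2(FPKM + 1) scale in either direction. Their 95% intervals reached from -1.06 to 0.66 over all of them. On the FPKM scale, their ratios of means, iGLI2 over iEV, ran from 0.602 (HOXA13) to 1.32 (HOXD8). Of the 22 entries without HOXD1, 15 had a mean under 5 FPKM, where the log2(FPKM + 1) scale understates a change. The median of the 22 differences was -0.12, with 15 below and 7 above 0, beside a median of -0.01 over all entries tested. Groups did not overlap for 5 of the 22 entries (1 higher and 4 lower in iGLI2), that is 22.7%, against 42% of all entries tested (19.2% higher and 22.8% lower).

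**Figure D2:**
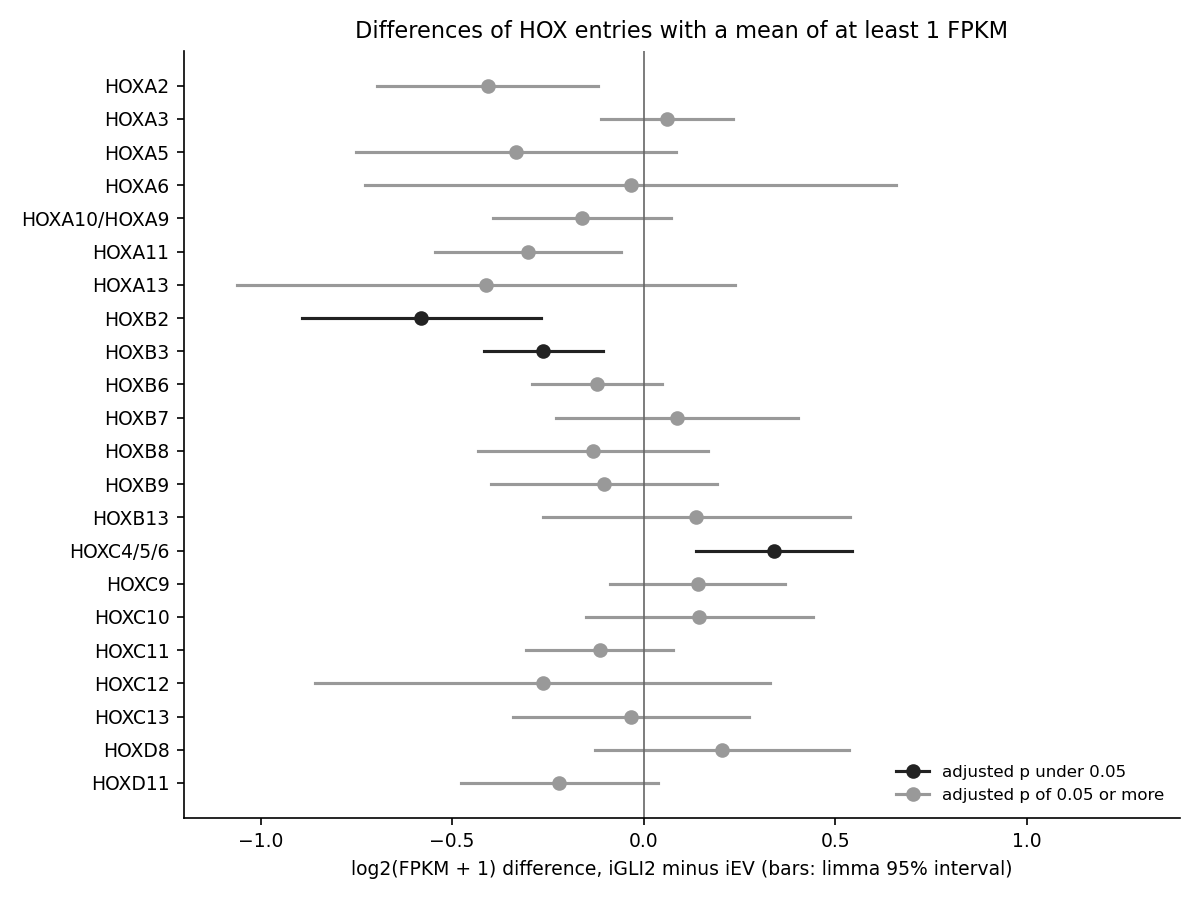
Differences of the 22 HOX entries with a mean of at least 1 FPKM, HOXD1 left out, as iGLI2 minus iEV on the log2(FPKM + 1) scale, with points for the estimate and bars for the limma 95% interval. Black marks HOXB2 (-0.58), HOXB3 (-0.26) and the merged HOXC4, HOXC5 and HOXC6 entry (0.34), which had an adjusted p under 0.05, and all other entries are grey.

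HOXB2, an anterior gene known from hindbrain segmentation, had 2.91, 2.38 and 3.13 FPKM in iEV replicates 1 to 3 and 1.24, 1.85 and 1.56 FPKM in iGLI2 replicates 1 to 3. All iGLI2 values lay below all iEV values. In RNA of whole cultures, less RNA per cell and fewer cells with the RNA cannot be told apart. The mean of the iGLI2 libraries was 0.552 of that of the iEV libraries (log2 difference -0.58, SE 0.13, limma adjusted p = 0.0253). The direction held without any 1 library, but the call was lost without iEV replicate 1 (limma adjusted p = 0.0690), iEV replicate 3 (0.0934) or iGLI2 replicate 3 (0.0764), and with no filter together with the replicate block (0.0650).

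HOXB3, the next gene of the cluster and a hindbrain gene too, had 5.58, 5.49 and 5.50 FPKM in iEV and 4.27, 4.77 and 4.29 FPKM in iGLI2 libraries. The iEV values were tight, and the mean ratio was 0.805 (log2 difference -0.26, SE 0.06, limma adjusted p = 0.0346). This call remained past the threshold in 1 of 6 fits that left out a library, that without iGLI2 replicate 1, and the limma adjusted p of the 6 fits ran from 0.0431 to 0.122. It was also lost when small RNA genes were left out and the libraries rescaled (limma adjusted p = 0.0972), with the first digit of the library code as a block (0.0687) and with no filter on low values (0.0738).

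HOXB2, HOXB3 and the noncoding HOXB-AS1 share the locus chr17:46620019-46651810 (hg19) in the table. HOXB-AS1 runs on the opposite strand, and the methods do not state that strand was used, so reads of overlapping exons cannot be told apart. HOXB-AS1 itself had 0.256, 0.419 and 0.426 FPKM in iEV and 0.204, 0.251 and 0.224 FPKM in iGLI2 libraries. Its groups did not overlap, and it was not called in the fit without a filter on low values (limma adjusted p = 0.134). The rest of the anterior HOXB cluster was scarce, with HOXB4 at 0.117 to 0.296 FPKM and HOXB5 at 0.320 to 0.799 FPKM and overlapping groups.

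The merged HOXC4, HOXC5 and HOXC6 entry, which covers the anterior end of the HOXC cluster (chr12:54410636-54449814, hg19), was the only one of the 23 HOX entries tested that rose past the threshold. It had 8.54, 8.36 and 7.08 FPKM in iEV and 10.0, 10.9 and 10.1 FPKM in iGLI2 libraries, without overlap and with a mean ratio of 1.30 (log2 difference 0.34, SE 0.08, limma adjusted p = 0.0360). Which of the 3 genes carried the difference cannot be read from a merged entry. The call was lost without iEV replicate 2 (limma adjusted p = 0.0909), iEV replicate 3 (0.0927), iGLI2 replicate 2 (0.126) or iGLI2 replicate 3 (0.0941). It was also lost with no filter on low values (0.0553), and with no filter plus a pseudocount of 0.1 (0.0504) or plus the replicate number as a block (0.0510).

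**Figure D3:**
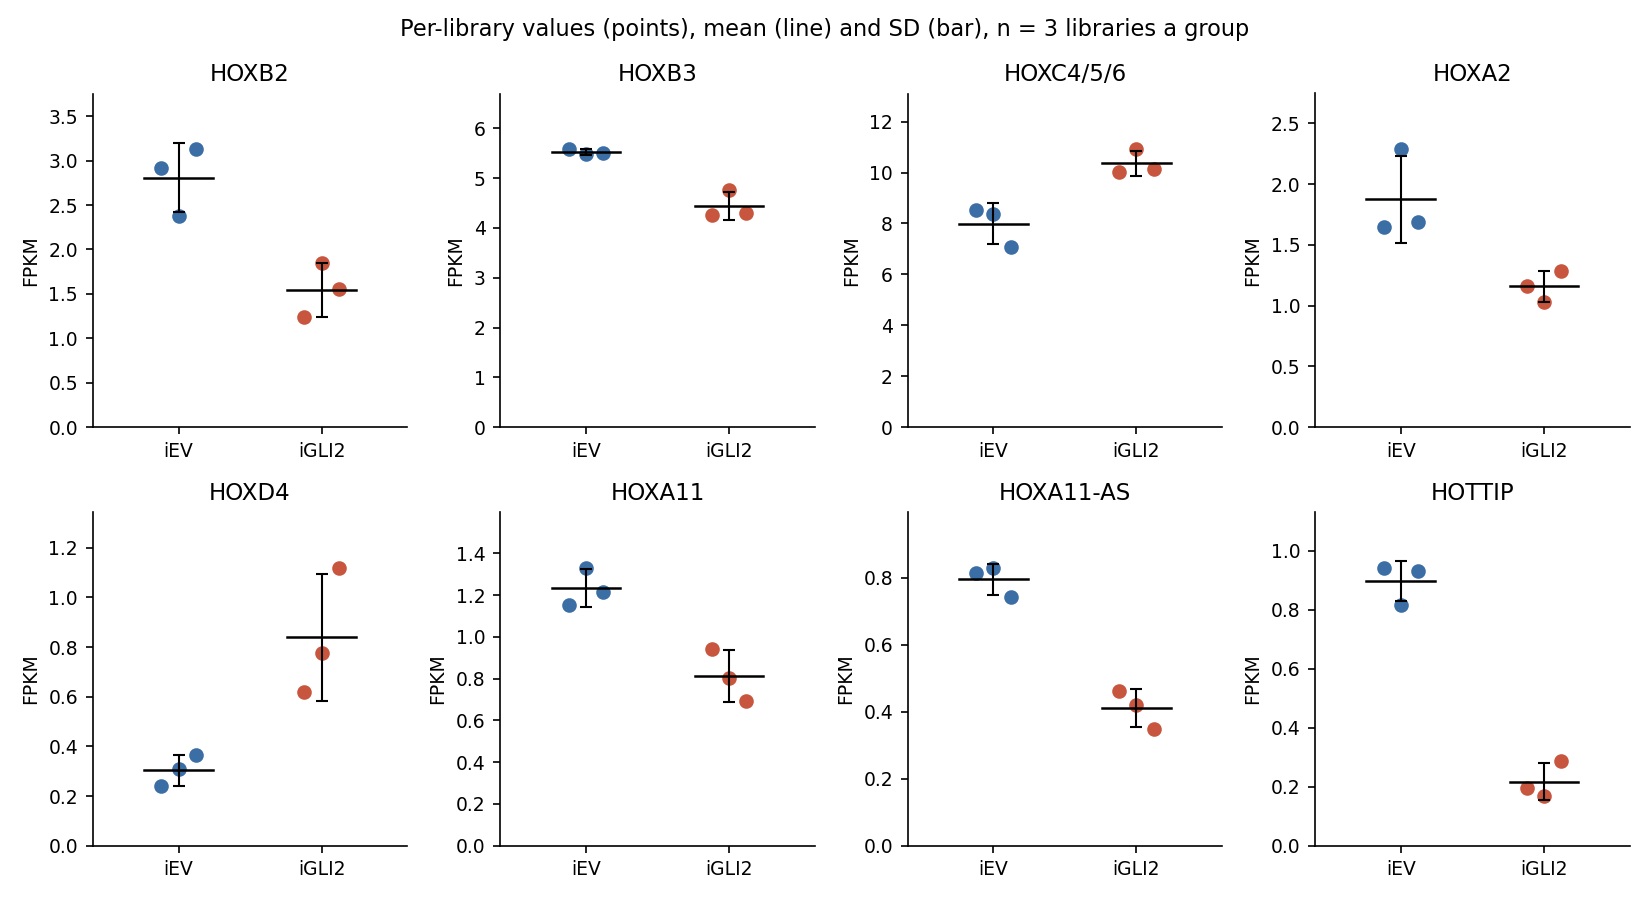
FPKM of selected HOX entries and neighboring noncoding RNAs whose groups did not overlap, as points for each library, with a line for the mean and a bar for the SD (n = 3 libraries a group). Also without overlap but not shown are HOXD1 and the noncoding HAGLR, HOXC-AS3 and FLJ12825, higher in iGLI2, and HOXB-AS1, lower in iGLI2. HOTTIP fell from a mean of 0.897 to 0.217 FPKM, HOXA11-AS from 0.796 to 0.410 FPKM, and HOXD4 had means of 0.303 and 0.839 FPKM.

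At both ends of the HOXA cluster a member separated the groups without being called in the main fit. HOXA2, the anterior gene of second pharyngeal arch identity, had 1.65, 2.29 and 1.69 FPKM in iEV and 1.16, 1.03 and 1.28 FPKM in iGLI2 libraries (log2 difference -0.41, SE 0.12, limma adjusted p = 0.0577). HOXA2 was called lower with quantile normalization (limma adjusted p = 0.0374), without the trend (0.0424) and with small RNA genes left out (0.0482). None of the 6 fits without 1 library called it. HOXA11, a posterior gene of limb and uterus, had 1.15, 1.33 and 1.22 FPKM in iEV and 0.944, 0.801 and 0.695 FPKM in iGLI2 libraries (log2 difference -0.30, SE 0.10, limma adjusted p = 0.0820). With no filter on low values HOXA11 came under the threshold (limma adjusted p = 0.0428), and of the 6 fits of that kind without 1 library only that without iGLI2 replicate 1 kept the call (adjusted p from 0.0237 to 0.139). With the filter, HOXA11 was also called by limma without the trend (limma adjusted p = 0.0380) and without iGLI2 replicate 1 (0.0458). HOXA13, the last gene of the cluster, ranged from 1.31 to 2.96 FPKM in iEV and from 0.739 to 1.67 FPKM in iGLI2 libraries, and iEV replicate 1 was the highest. The fit with the replicate number as a block called HOXA13 (limma adjusted p = 0.0449) and HOXA5 (0.0333) lower.

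Noncoding RNAs at the posterior end of HOXA also differed. HOTTIP, a noncoding RNA known to sustain the posterior HOXA genes through WDR5 and trithorax methyltransferases, had 0.943, 0.818 and 0.932 FPKM in iEV and 0.195, 0.169 and 0.288 FPKM in iGLI2 libraries. The mean ratio was 0.242, and without a filter on low values HOTTIP fell (log2 difference -0.64, SE 0.05, limma adjusted p = 0.00166). HOXA11-AS, transcribed from the strand opposite HOXA11, had 0.813, 0.831 and 0.744 FPKM in iEV and 0.461, 0.421 and 0.350 FPKM in iGLI2 libraries, a ratio of 0.516, and fell in the same fit (log2 difference -0.35, SE 0.05, limma adjusted p = 0.00685). Both calls were kept in all 6 fits that left out a library, with adjusted p from 0.00486 to 0.0121 for HOTTIP and from 0.00864 to 0.0364 for HOXA11-AS. In that fit 15.1% of 20035 entries were called.

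The table places HOXA11 (chr7:27220776-27224835), HOXA11-AS (chr7:27225027-27228912), HOXA13 (chr7:27236499-27239725) and HOTTIP (chr7:27240040-27246878, all hg19) side by side without overlap. In GENCODE 44, HOXA11-AS and HOTTIP reach back over HOXA11 and HOXA13 on the opposite strand. Reads from such overlaps cannot be told apart. Between these and the anterior end, HOXA3 had means of 7.38 and 7.76 FPKM in iEV and iGLI2 libraries, HOXA5 2.92 and 2.12 FPKM, HOXA6 1.45 and 1.47 FPKM and the merged HOXA10 and HOXA9 entry 10.5 and 9.33 FPKM, all with overlapping groups and none called in the main fit. Summed over the 10 HOXA entries, the iEV libraries had 28.8 to 30.1 FPKM and the iGLI2 libraries 22.7 to 28.0 FPKM. The groups did not overlap in this sum, as for 42% of all entries tested. They did not overlap in the FPKM totals of the libraries either (981344 to 1082687 in iEV and 803149 to 889559 in iGLI2). The difference of the sums was not tested. The sums of the other clusters overlapped between groups, with 55.0 to 59.3 and 47.2 to 61.0 FPKM for HOXB, 23.9 to 26.8 and 25.0 to 29.7 FPKM for HOXC and 5.12 to 5.56 and 4.57 to 6.83 FPKM for HOXD without HOXD1.

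The promoters in RefSeq (250 bases before to 50 after the start, GRCh38.p14, both strands) were searched for a GLI consensus, GACCACCCA, its shorter core CCACCC, which the consensus contains, a joint HOX and PBX site, TGATNNAT, and the homeodomain core TAATTA. Promoters were found for 20 of 39 HOX genes, 27 in all, HOXB2, HOXB3 and HOXC6 not among them. None of the 27 held the GLI consensus, which is in 0.236% of 35116 promoters, and 6 (22.2%) held the core, which is in 34.3% of them. Promoters were counted per gene, so the identical promoter of HOXC4 and HOXC5 counts 2 times in both the 27 and the 6. The promoters shown are those of members and a noncoding RNA whose groups did not overlap and that held a match, which stands in capitals. That of HOTTIP (chr7:27200171-27200470, plus strand) held the GLI core, and the shared promoter given for HOXC4 and HOXC5 (chr12:54016638-54016937, plus strand) held it 2 times with a base in common. That of HOXA2 (chr7:27102634-27102933, minus strand) held the GLI core and, further along, the HOX and PBX site, found in 7.4% of all promoters.
HOTTIP: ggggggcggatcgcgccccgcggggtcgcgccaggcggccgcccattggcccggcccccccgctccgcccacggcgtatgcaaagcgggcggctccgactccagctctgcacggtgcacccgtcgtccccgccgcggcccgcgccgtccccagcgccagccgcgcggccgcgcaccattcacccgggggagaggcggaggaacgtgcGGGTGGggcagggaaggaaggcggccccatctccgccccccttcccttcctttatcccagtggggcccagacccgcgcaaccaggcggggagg
HOXC4 and HOXC5: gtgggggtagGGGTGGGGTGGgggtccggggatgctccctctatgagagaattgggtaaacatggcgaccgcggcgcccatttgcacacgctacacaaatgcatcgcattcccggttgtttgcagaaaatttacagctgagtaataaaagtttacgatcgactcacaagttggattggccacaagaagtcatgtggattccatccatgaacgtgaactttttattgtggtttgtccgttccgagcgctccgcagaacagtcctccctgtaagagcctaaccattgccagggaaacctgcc
HOXA2: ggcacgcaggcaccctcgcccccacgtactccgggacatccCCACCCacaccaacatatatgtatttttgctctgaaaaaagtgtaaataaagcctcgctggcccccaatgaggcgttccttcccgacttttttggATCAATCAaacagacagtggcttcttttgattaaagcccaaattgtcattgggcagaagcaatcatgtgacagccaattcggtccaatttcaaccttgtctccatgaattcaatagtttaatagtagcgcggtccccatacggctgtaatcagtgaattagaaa

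The promoters of HOXA11, HOXA11-AS and HOXD4 held neither the GLI core nor the HOX and PBX site nor TAATTA. A match of this kind says nothing about binding, and a missing match says only that these letters are absent from the window.

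Among the low members, 1 of 11 had groups that did not overlap, HOXD4, against 33.4% of the entries with a mean from 0.1 to 1 FPKM (18.6% higher and 14.7% lower). HOXD4, an anterior HOXD gene of vertebral patterning, had 0.239, 0.307 and 0.363 FPKM in iEV and 0.621, 0.777 and 1.12 FPKM in iGLI2 libraries. The lowest iGLI2 value was above the highest iEV value, the ratio of means was 2.77, and HOXD4 rose in the fit without a filter (log2 difference 0.49, limma adjusted p = 0.0326). That call was kept in 2 of 6 fits that left out a library and lost without any of the 3 iEV libraries or iGLI2 replicate 2 (adjusted p from 0.0845 to 0.105). In the same fit 3 of 36 HOX entries (8.33%) were called, HOXA11 and HOXB2 lower and HOXD4 higher, beside the 15.1% over all entries (7.44% higher and 7.62% lower). The other 10 low members, HOXA4, HOXA7, HOXB4, HOXB5, HOXC8, HOXD3, HOXD9, HOXD10 and HOXD12 among them, had overlapping groups.

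HOXD1 rested on a single library. It had 0.259, 0.277 and 0.343 FPKM in iEV and 0.652, 499 and 0.498 FPKM in iGLI2 replicates 1 to 3, and without iGLI2 replicate 2 its mean fell below the filter. It was not called (log2 difference 3.05, SE 2.26, limma adjusted p = 0.393). A value of at least 5 FPKM in 1 library and at least 100 times the next library was found in 126 entries, of which 123 carry names of small RNA genes and 2, HOXD1 and the calcium channel subunit CACNG8, were above 0 in all libraries. RefSeq places the hairpin of MIR7704 within HOXD1 (chr2:176188843-176188901, GRCh38.p14), and the table has no entry of that name. Whether small RNA fragments account for the value was not tested. The antisense neighbor HAGLR, which shares the HOXD1 locus in the table, had 1.86, 1.72 and 1.51 FPKM in iEV and 2.83, 2.15 and 2.18 FPKM in iGLI2 libraries and was not called (limma adjusted p = 0.0903), and iGLI2 replicate 2 did not stand apart in it.

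Of the posterior HOXC genes none was called. HOXC9 had means of 3.66 and 4.13 FPKM in iEV and iGLI2 libraries, HOXC10 7.00 and 7.90 FPKM, HOXC11 2.38 and 2.12 FPKM, HOXC12 1.93 and 1.43 FPKM and HOXC13 1.52 and 1.47 FPKM, all with overlapping groups. HOTAIR, the noncoding RNA of the HOXC cluster known for its link to Polycomb complexes, had 0.774 to 1.04 FPKM in iEV and 0.688 to 0.926 FPKM in iGLI2 libraries. HOXC-AS3 separated the groups, with 0, 0.190 and 0 FPKM in iEV and 0.366, 0.456 and 1.18 FPKM in iGLI2 libraries, and without a filter had a limma adjusted p of 0.0893, but of 0.0459 with a pseudocount of 0.1. Beyond HOXC4, the noncoding FLJ12825 had means of 0.328 FPKM in iEV and 0.540 FPKM in iGLI2 libraries, without overlap, and rose in that fit (log2 difference 0.21, limma adjusted p = 0.0247), a call kept in 1 of 6 fits that left out a library, that without iGLI2 replicate 1, and lost with a pseudocount of 0.1 (0.0557) or the replicate block (0.0539).

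In the posterior HOXB cluster no member was called. HOXB6 had means of 6.48 and 5.87 FPKM in iEV and iGLI2 libraries, HOXB8 1.63 and 1.39 FPKM, HOXB9 9.71 and 9.06 FPKM and HOXB13, the prostate and hindgut gene that lies apart from the others, 2.20 and 2.54 FPKM. Just beyond HOXB13, the tubulin glutamylase gene TTLL6 had 0.689 to 0.959 FPKM in iEV and 0.177 to 0.211 FPKM in iGLI2 libraries and fell (log2 difference without a filter -0.62, limma adjusted p = 0.00275), and that call was kept in all 6 fits that left out a library. Within 60 kb of the clusters, 25 entries that are no HOX member were above 0 in some library, and 4 of them (16.0%) were called without a filter, HOTTIP, HOXA11-AS and TTLL6 lower and FLJ12825 higher, beside the 15.1% of all entries in that fit.

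The lowest value of a group often came from the same library. Within the iGLI2 group, replicate 1 held the lowest value of the group for 15 of the 22 entries (68.2%), as it did for 53.9% of all entries tested, and it also had the lowest GLI2. Within the iEV group, replicate 1 was lowest for 12 of the 22 entries (54.5%, against 45.0% of all entries). The coefficient of variation between libraries had a median of 10.8% in iEV and 16.1% in iGLI2 libraries over the 22 entries. It ran from 0.599% for HOXB9 to 49.5% for HOXA13 in iEV and from 3.33% for HOXC11 to 53.5% for HOXA6 in iGLI2 libraries.

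Among the 6 TALE cofactors tested of 9 listed, 1 rose and none fell (16.7%, against the 21.9% of all entries tested). PKNOX1, a partner of PBX proteins, had 4.76 to 5.26 FPKM in iEV and 5.95 to 6.41 FPKM in iGLI2 libraries (log2 difference 0.26, SE 0.06, limma adjusted p = 0.0358). PBX3 had 6.26 to 6.77 and 7.30 to 8.89 FPKM and just missed the threshold (limma adjusted p = 0.0516), and PBX2, PBX4 and MEIS2 had adjusted p of 0.509 to 0.574. PBX2 was the most abundant cofactor at 25.6 to 31.2 FPKM, and MEIS1, MEIS3 and PKNOX2 lay below the filter. No cofactor was called without any 1 of the iEV libraries, iGLI2 replicate 2 or iGLI2 replicate 3, and 3 were called without iGLI2 replicate 1.

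Among the 26 Polycomb and trithorax genes, all tested, 2 rose and 1 fell (11.5%, against the 21.9% of all entries tested). KDM6B, the demethylase that removes the Polycomb mark, had 2.56 to 2.88 FPKM in iEV and 3.87 to 4.82 FPKM in iGLI2 libraries (log2 difference 0.53, SE 0.09, limma adjusted p = 0.0117). JARID2, a subunit that guides Polycomb complex 2 to its sites, had 1.22 to 1.41 and 1.96 to 2.58 FPKM (log2 difference 0.51, SE 0.10, limma adjusted p = 0.0182). WDR5, the shared subunit of trithorax-type methyltransferases, had 29.5 to 30.0 and 22.6 to 26.1 FPKM (log2 difference -0.32, SE 0.07, limma adjusted p = 0.0287). The fall of WDR5 was lost with upper quartile scaling, quantile normalization, the first digit of the library code as a block or small RNA genes left out, each of which left 0 genes of the list called lower. The median of the list was 0.07. No gene of the list was called without iEV replicate 2, iEV replicate 3 or iGLI2 replicate 2, 1 was called without iEV replicate 1 or iGLI2 replicate 3, and 6 were called without iGLI2 replicate 1.

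Of the 12 regulators of axial HOX expression and ParaHox genes 4 were tested, and 2 rose, as did 10.1% of all entries tested. A list of 4 tested entries is too short to compare with that share. The retinoic acid receptor RARB, itself a retinoic acid target, had 0.705 to 1.24 FPKM in iEV and 1.99 to 3.32 FPKM in iGLI2 libraries (log2 difference 0.86, SE 0.17, limma adjusted p = 0.0197), and RARA had 9.95 to 12.4 and 14.0 to 14.8 FPKM (log2 difference 0.38, SE 0.09, limma adjusted p = 0.0324). RARG, and PDX1, the ParaHox gene of the pancreas, were not called (limma adjusted p = 0.922 and 0.116). PDX1 had 2.72 to 4.01 FPKM in iEV and 1.85 to 2.74 FPKM in iGLI2 libraries (log2 difference -0.42), with overlapping groups. With the replicate block or without iGLI2 replicate 1, 1 gene of the list was called lower. Without iEV replicate 2 or 3 or iGLI2 replicate 2 or 3, no gene of this list was called. Below the filter, GDF11, a signal that turns on posterior HOX genes, had 0.450 to 0.713 FPKM in iEV and 1.09 to 1.24 FPKM in iGLI2 libraries and rose without a filter (limma adjusted p = 0.0154, and 0.0619 without iGLI2 replicate 2). CDX2 had 0.135 to 0.345 FPKM, and CDX4 and GSX1 were listed at 0 in all libraries.

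Of 24 noncoding transcripts listed for the clusters 22 were found and 4 reached the filter, HAGLR, HOXB-AS3, HOXD-AS2 and MIR196A1. None was called by limma, and 1 of them, HAGLR, had an unadjusted p under 0.05. HOTTIP and HOXA11-AS were the 2 called of 17 in the fit without a filter, where 15.1% of all entries were called. Of 17 coding genes beside the clusters 13 were tested, and 3 were called (23.1%, against the 21.9% of all entries tested). SKAP2 (log2 difference 0.31, limma adjusted p = 0.0142) and HIBADH (0.27, limma adjusted p = 0.0207), which flank the HOXA cluster, rose. ATP5G3, beyond the HOXD cluster, fell (-0.39, limma adjusted p = 0.0127). SKAP2 had 30.9 to 33.5 FPKM in iEV and 39.3 to 40.3 FPKM in iGLI2 libraries. None of the 13 was called without iEV replicate 2, iGLI2 replicate 2 or iGLI2 replicate 3, and 1 was called without iEV replicate 3.

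**Figure D4:**
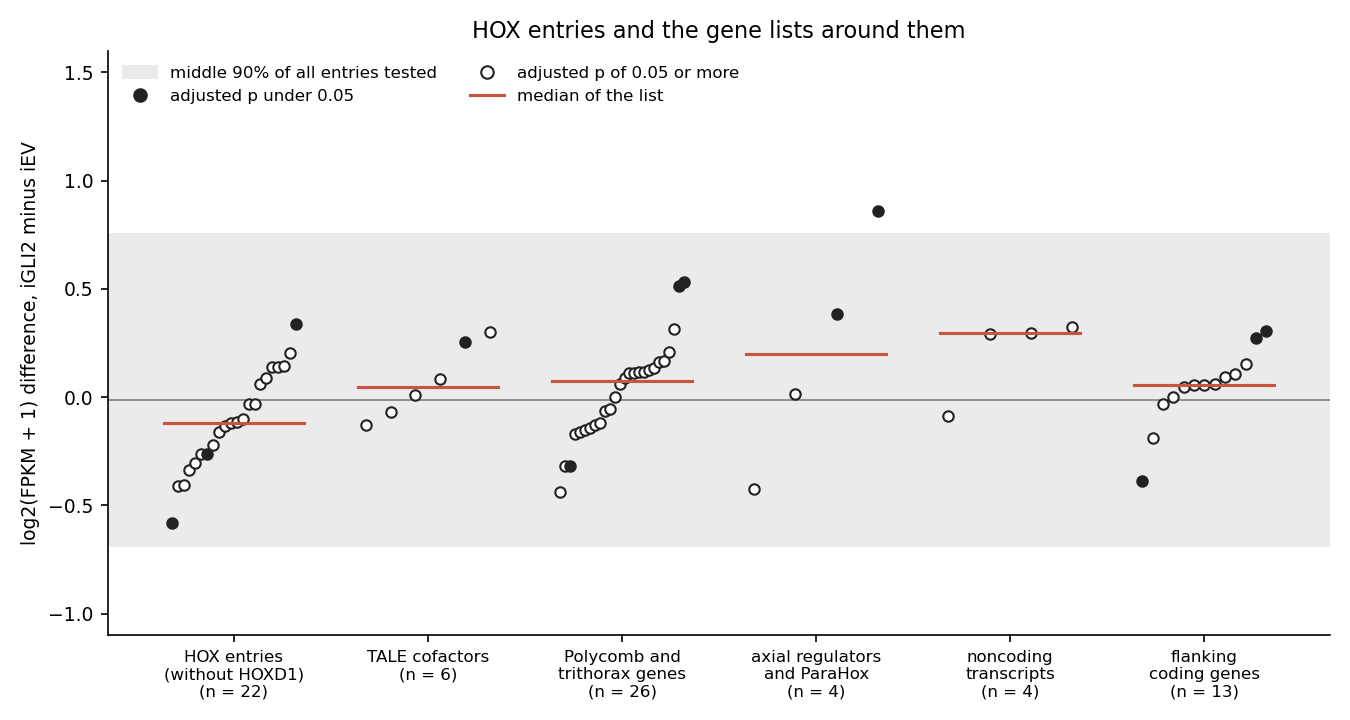
Differences (iGLI2 minus iEV, log2(FPKM + 1) scale) of the HOX entries, HOXD1 (3.05) left out, and of 5 gene lists, 1 point per entry tested, filled where the adjusted p was under 0.05, with red lines for list medians, a grey line for the median of all entries and a grey band for the middle 90% of all entries (-0.69 to 0.76). The 22 HOX entries shown lay within the band, with 2 called below and 1 above 0, and RARB (0.86) was the only point shown outside it.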

How the data were processed

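RNA of 3 iEV and 3 iGLI2 libraries of YAPC cells was made into libraries with the Illumina TruSeq RNA kit. Per the methods, reads were clipped with Trimmomatic, and TopHat2 was run against hg19, followed by Cuffdiff (version 2.1.1 in the submitters' processing notes). The values the authors deposited were taken as FPKM from their form, since the table's header names no unit. The annotation, scaling between libraries, strand setting and treatment of reads with several matches are not given in the sources used here. Of 27024 entries, 25442 on primary chromosomes with the highest mean per name were kept, and no column lacked a sample. Loci start from 0 in the table, and 1 was added.

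The groups were compared on log2(FPKM + 1) in R 4.3.3 by limma 3.58.1, with group as the only term and an intensity trend, on entries with a mean of at least 1 FPKM. The fit was tested on simulated data. Alternatives were other scaling, a pseudocount of 0.1, no filter, a mean of at least 5 FPKM, blocks, no trend, small RNA genes left out and each library left out. Tables, sequence searches and plots used Python 3.11.15, pandas 2.3.3 and matplotlib 3.10.9.

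All HOX members are counted, and 1 of them and 1 cofactor are not reported by name or value here; members of at least 1 FPKM and low members without overlap are given by value, and of each list up to 5 called members in each direction. The members, lists and tests were chosen with earlier results of these data known. Protein sequences were not used here. The 2-sided exact permutation test of 3 against 3 libraries cannot go below p = 0.1 and was not used.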

Additional observations from a re-analysis of the deposited data

How the results depend on the processing

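The count of HOX members called was 3 of 23. It was 1 with a mean of at least 5 FPKM (8 entries tested), 5 with the replicate number as a block, 5 with limma without the trend, and 0 to 4 without 1 library, with 0 without iEV replicate 3 or iGLI2 replicate 3 and 4 without iGLI2 replicate 1. Over all entries, leaving out a library gave 1222 to 3744 calls against 2742, with 1222, 1295, 1362 and 1492 without iEV replicate 2, iEV replicate 3, iGLI2 replicate 2 and iGLI2 replicate 3. Differences near 0 changed sign: HOXA6 to 0.0050 and HOXC13 to 0.012 with small RNA genes left out, and without 1 library HOXA6 ran from -0.19 to 0.27 (above 0 without iEV replicate 2 or iGLI2 replicate 1), HOXC13 from -0.092 to 0.074 (above 0 without iEV replicate 3 or iGLI2 replicate 1) and HOXB9 from -0.18 to 0.032 (above 0 without iGLI2 replicate 1). With small RNA genes left out, 1791 entries were called higher and 1223 lower, against 1262 and 1480, and the median of all entries moved to 0.06.

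TALE cofactors had 1 call, 2 with upper quartile scaling, quantile normalization, a pseudocount of 0.1 or small RNA genes left out, 0 with no filter, a mean of at least 5 FPKM or the first digit of the library code as a block, and 0 to 3 without 1 library. Polycomb and trithorax genes had 3 calls, 1 with a mean of at least 5 FPKM, 6 with the replicate block and 0 to 6 without 1 library. Axial regulators and ParaHox genes had 2 calls, 1 with a mean of at least 5 FPKM or the code digit block and 0 to 2 without 1 library. Noncoding transcripts had 0 calls, 2 with no filter or with the replicate block and 0 without any 1 library, and flanking genes had 3 calls and 0 to 3 without 1 library. Of the alternatives chosen after the data were seen, no filter with a pseudocount of 0.1 gave 0 TALE and 3 noncoding calls, and no filter with the replicate block gave 0 TALE, 5 Polycomb and trithorax and 3 noncoding calls. The cause of these shifts was not tested.

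Libraries of the same number correlated at 0.204, 0.0919 and 0.0276 in their deviations from the group means, and libraries of different numbers at -0.193 to 0.117. Deviations from a mean of so few libraries depend on each other, so these values do not settle whether the numbers pair libraries. The labels name no pairing, and the main fit used none. The replicate block gave 3928 calls over all entries, against 2742 in the main fit. Depth behind the FPKM values is unknown, which limits all statements on low members.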
